A study of Homo sapiens with 8 samples.

Results

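The genes described here are 41 interferon-stimulated antiviral effector genes, taken as a fixed list of symbols and followed across lung fibroblasts with and without knockdown of MTHFD2, a mitochondrial folate enzyme. All 41 were found among the 60666 gene IDs of the deposited count table. All 41 also had a mean of at least 1 CPM over the libraries (counts scaled to a common library total) and were therefore among the 13493 genes tested. No measured value was used to choose them, although earlier results of these data were known when the list was made.

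RNA was sequenced in bulk from MRC5, human lung fibroblasts. One line of cells was given a mock hairpin (shMock) and the other an MTHFD2 hairpin (shMTHFD2), and each line was sampled as control or with TGF-β1, the cytokine that activates fibroblasts. That gives 4 groups of 2 libraries. The labels give 4 ng of TGF-β1 with no volume and 24 h of incubation, and they put this text on the control samples as well. No second hairpin, rescue or untransduced cells are among the libraries, so the loss of MTHFD2 and any other difference between the lines cannot be told apart. In 3 shMTHFD2 samples the genotype field names other MTHFD genes, and the extraction text names another cell line and hairpin. The groups therefore rest on the titles. Nothing says that replicates were separate cultures, so the spread behind each p-value is that of these libraries and may be technical.

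Interferons are secreted when a cell senses viral nucleic acid. They bind receptors that act through JAK kinases on transcription factors of the STAT family, and these bind interferon-stimulated response elements in the promoters of target genes. The proteins these genes encode bind or degrade viral RNA, block entry and budding of viruses, modify proteins with ISG15 or change nucleotide pools. Fibroblasts keep many of these genes at a low level without infection.

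The response element could be seen in most of the promoters. Windows from 250 bases before to 50 bases after the start (RefSeq, GRCh38.p14) were given for 34 members and were searched for its core, which is GAAA, any 2 bases and GAAA on 1 strand, and TTTC, any 2 bases and TTTC on the other. Overlapping matches were counted. At least 1 window of 26 members (76.5%) held it, against 4.38% of the 27305 genes with a window. Over windows of this same length of 300 bases, the shares were 66% of the 47 member windows and 3.57% of all 35116. The stretches below show promoters of members that stood at different places in the knockdown comparison, 5′ to 3′ on the strand of the gene, with the element in capitals.
IFIT1, plus strand of chr10:89392483-89392543: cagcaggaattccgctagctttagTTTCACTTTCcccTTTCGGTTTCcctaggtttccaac
OAS3, plus strand of chr12:112938314-112938351: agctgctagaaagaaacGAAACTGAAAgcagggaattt
SAMD9, minus strand of chr7:93118070-93118149: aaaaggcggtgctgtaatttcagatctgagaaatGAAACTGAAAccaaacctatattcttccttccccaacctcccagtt
HERC5, plus strand of chr4:88456979-88457058: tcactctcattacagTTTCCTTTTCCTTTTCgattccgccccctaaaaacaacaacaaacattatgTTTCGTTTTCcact
ISG15, plus strand of chr1:1013357-1013422: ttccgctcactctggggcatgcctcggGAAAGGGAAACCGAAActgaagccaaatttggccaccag
PARP9, minus strand of chr3:122564316-122564345: aaagTTTCAGTTTCgcttccctggaggtcc
IFI6, minus strand of chr1:27672263-27672362: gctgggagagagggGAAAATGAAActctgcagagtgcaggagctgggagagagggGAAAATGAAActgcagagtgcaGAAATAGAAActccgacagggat
LGALS3BP, minus strand of chr17:78979962-78979991: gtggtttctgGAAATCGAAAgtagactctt

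OAS3 and SAMD9 carry the same 10 letters, GAAACTGAAA. HERC5 and ISG15 each hold a pair of overlapping matches, printed as 1 capital run. PARP9 and DTX3L are neighbours read in opposite directions, and the match at chr3:122564332-122564341 lies in the windows of both. IFI6 holds 3 matches in the 100 bases shown. The 8 members whose windows held no match were CMPK2, HERC6, IFI35, OAS1, SAMD9L, SP110, UBE2L6 and XAF1. CMPK2 is shown because it was among the members with the largest knockdown differences while these letters do not occur in its window.
CMPK2, minus strand of chr2:6866636-6866715: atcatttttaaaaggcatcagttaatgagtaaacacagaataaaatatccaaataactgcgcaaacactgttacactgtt

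The other element searched, the gamma-activated site TTCNNNGAA, which is read the same on both strands, was found for 11 of the 34 members (32.4%) and for 9.38% of all genes with a window. No promoter window was matched for IFIT2, IFITM2, MX2, OAS2, OASL, USP18 and TRIM22.

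MTHFD2 itself checked the labels. Without TGF-β1 it read 58.8 and 57.1 CPM in shMock against 14.9 and 18.7 CPM in shMTHFD2. With TGF-β1 it was 256 and 258 CPM in shMock and 93.8 and 91.9 CPM in shMTHFD2. Every shMTHFD2 library was thus below both shMock libraries of its treatment (log2 fold change −1.79 ± 0.10 SE without and −1.47 ± 0.09 SE with TGF-β1, edgeR adjusted p = 3.5e-07 and 8.7e-07). The shMTHFD2 libraries with TGF-β1 nevertheless held more MTHFD2 RNA than shMock without it.

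Library totals ran from 18162738 to 22221927 counts. The fibroblast markers summed to 30579 to 54250 CPM, and the epithelial list to at most 0.23 CPM in any library, with KRT19, SFTPC and NKX2-1 at 0 in all. Of the immune markers, CD3E and MS4A1 were at 0 in every library, and of the 5 endothelial markers PECAM1 and CDH5. The endothelial sum, most of it TEK, was 98.9 to 110.1 CPM in shMock against 96.8 to 104 CPM in shMTHFD2 without TGF-β1, and 43.3 to 48.9 CPM against 40.8 to 43.4 CPM with it. It moved with TGF-β1, and its part in the TGF-β1 results below was not tested. The sum of the 6 immune markers, nearly all of it CD68, was 101 to 106 CPM in shMock against 75.0 to 76.4 CPM in shMTHFD2 without TGF-β1, and 53.5 to 58.6 CPM against 47.2 to 51.1 CPM with it. Its part in the results below was not tested. Of the 4 groups, shMock with TGF-β1 had replicates that stood apart for the members: 37 of 41 were higher in replicate 2 than in replicate 1, by a median of 0.23 on the log2 scale. Medians of this ratio in the other groups ran from −0.05 to 0.09. In bulk RNA, fewer cells that express a gene and less RNA per cell cannot be told apart.

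Summed over the 41 genes, the 2 libraries of shMock held 8972 and 8669 CPM without TGF-β1, just under 1% of the RNA counted. With TGF-β1 the shMock sums were 7050 and 7776 CPM. In shMTHFD2 they were 5022 and 5036 CPM without TGF-β1 and 4452 and 4756 CPM with it. The 4 shMTHFD2 libraries were all below the 4 shMock libraries. Gene by gene, all 4 shMTHFD2 libraries were below all 4 shMock libraries for 37 members, where 6.17% of all tested genes had this order. The exceptions were IFITM2, ISG20, TRIM22 and LGALS3BP. Per kilobase of exon, the highest mean levels in shMock control were those of IFI6 (668 CPM per kb), IFITM3 (479 CPM per kb) and ISG15 (394 CPM per kb), and ISG20 was lowest at 0.649 CPM per kb.

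**Figure D1:**
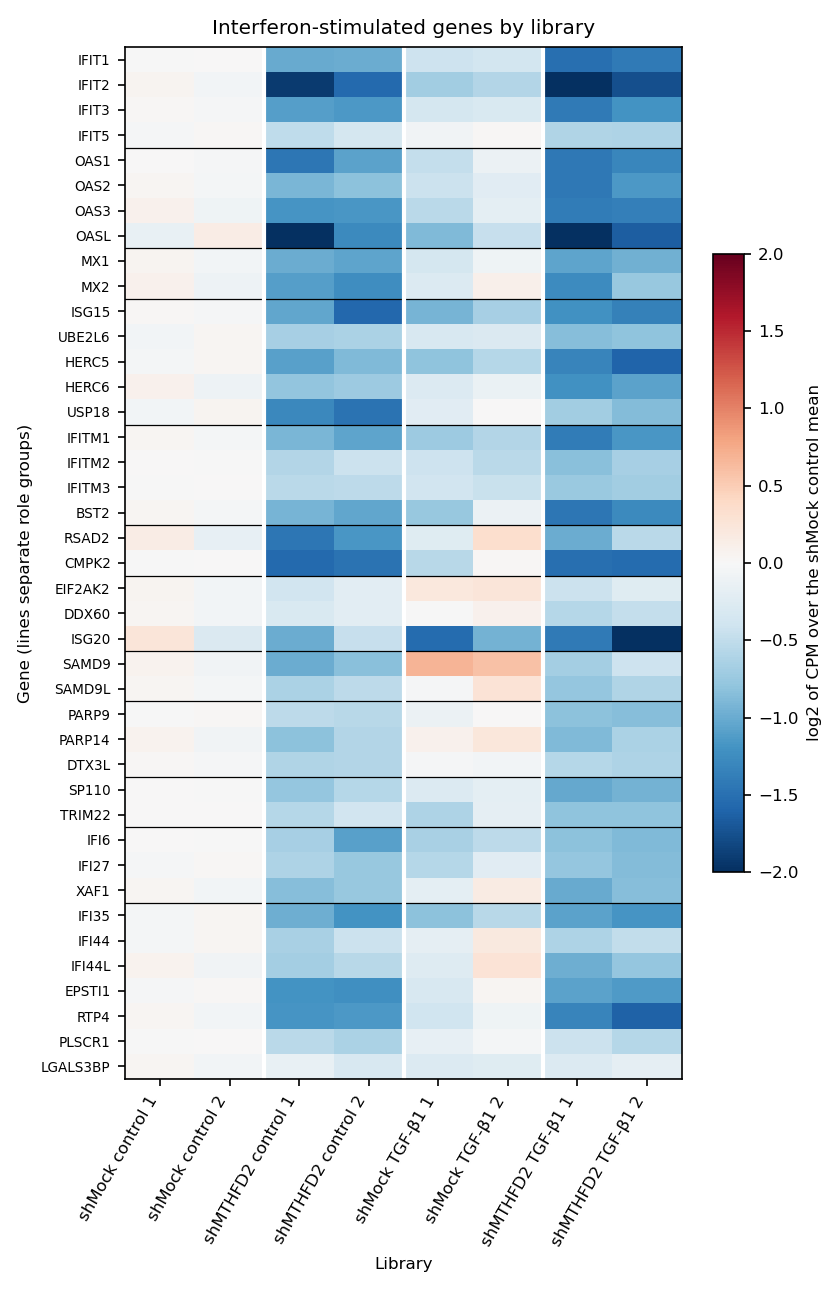
Level of each of the 41 genes (rows, by role group) in each of the 8 libraries (columns), as log2 of CPM over the mean of the 2 shMock control libraries of that gene. Blue is lower and red higher, and values beyond the colour bar take its end colour; the shMTHFD2 columns are blue in nearly every row, and SAMD9 is red in shMock with TGF-β1.

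The main comparison asked how knockdown changes transcription while fibroblasts are activated. With TGF-β1, 37 of the 41 genes were lower in shMTHFD2 than in shMock and none was higher (edgeR quasi-likelihood test, Benjamini-Hochberg adjusted p under 0.05). Of all tested genes, 8.23% were called lower in this comparison, 4.83% higher and 13.1% in either direction. The median log2 fold change of the members was −0.77, against 0.01 over all genes, and the values ran from −1.39 for OASL to 0.03 for LGALS3BP. At least 2-fold lower were 8 members, and the share of all genes at this size is not given here. The 2 shMTHFD2 libraries lay below both shMock libraries for 39 members, an order seen for 27.4% of all tested genes. The 4 genes not called were IFI6, IFITM2, ISG20 and LGALS3BP.

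Without TGF-β1 the picture was much the same, and these 4 libraries are not those of the comparison with TGF-β1. In shMTHFD2, 38 members were lower and none was higher, where 8.19% of all genes were called lower, 3.25% higher and 11.4% in either direction. The median was −0.86, against −0.01 over all genes, with a range from −1.72 for IFIT2 to −0.23 for LGALS3BP. A difference of at least 2-fold was found for 15 members, again without a share of all genes to set beside it. All 41 had both shMTHFD2 libraries below both shMock libraries, as had 30.1% of all genes. DDX60, ISG20 and LGALS3BP were not called. Both comparisons called 36 members lower, as they did 4.59% of all tested genes. Called lower in at least 1 of the comparisons were 39 members, a looser count for which no share of all genes is given here. ISG20 and LGALS3BP were called in neither.

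Removing 1 library at a time left 31 to 39 members called lower with TGF-β1 and 34 to 38 without it. The shares of all genes called in these reduced fits are not given here, and whether they moved alike was not tested. The smallest count with TGF-β1, 31, came without replicate 2 of shMock with TGF-β1, where the members had stood high, and also without replicate 2 of shMTHFD2 with TGF-β1. Without replicate 1 of shMock with TGF-β1 it was 36.

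**Figure D2:**
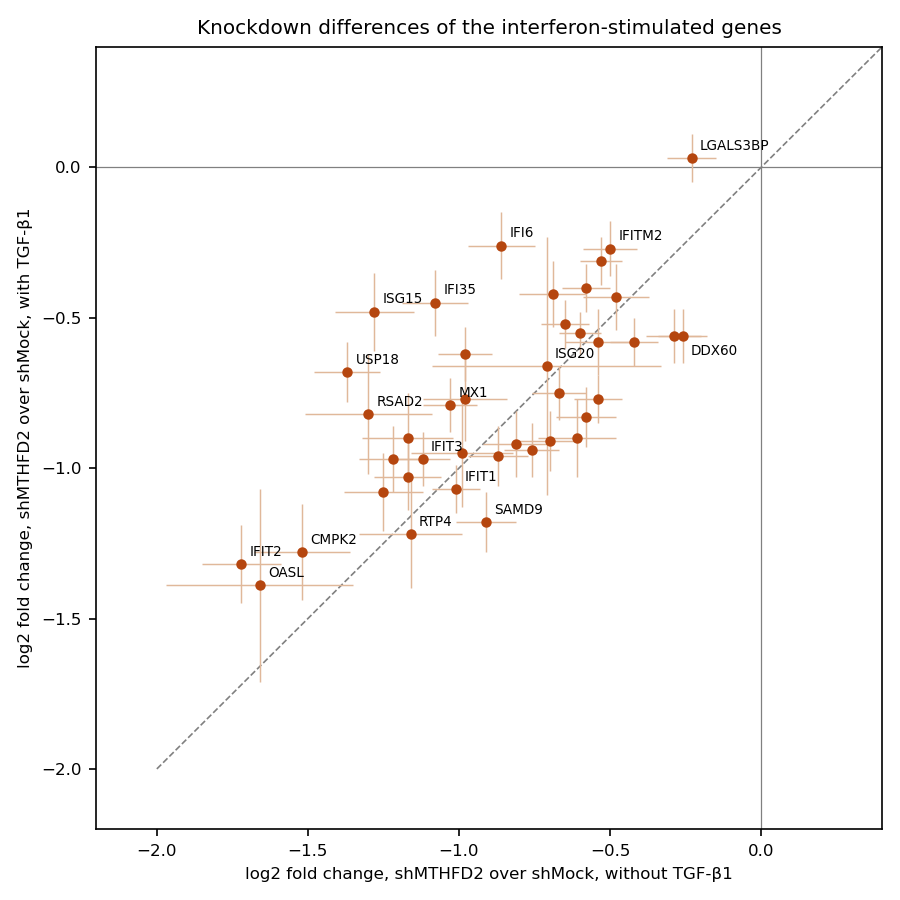
Each point is 1 of the 41 genes: log2 fold change of shMTHFD2 over shMock without TGF-β1 (x axis) and with TGF-β1 (y axis), with SE bars and the line of equal change dashed. All points but LGALS3BP lie below 0 on both axes; ISG15, USP18, IFI35 and IFI6 lie farthest above the dashed line.

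Members that differed more without TGF-β1 also tended to differ more with it. Across the 41 genes the 2 sets of log2 fold changes had a Pearson r of 0.68, and across all tested genes 0.33. This is a description, since the genes share the libraries and are not independent. The difference was more negative without TGF-β1 for 26 members and more negative with it for 15.

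The RNA-binding IFIT proteins, some of which recognise viral 5′ ends and hold them away from the ribosome, were lower for 4 of 4 genes in both comparisons. IFIT2 stood at 686 and 633 CPM in shMock control and at 175 and 225 CPM in shMTHFD2 control. With TGF-β1 its level was 407 and 441 CPM in shMock and 146 and 194 CPM in shMTHFD2. The knockdown groups did not overlap, and the log2 fold change was −1.72 ± 0.13 (SE) without TGF-β1 and −1.32 ± 0.13 with it (adjusted p = 3.3e-06 and 2.2e-05). Its exons overlap those of LIPA on the other strand and of AL353751.1 on the same strand, so how reads there were counted is uncertain.

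IFIT1, whose promoter stretch with 2 matches is printed above, was about 2-fold lower in both settings: 788 and 801 CPM in shMock control against 394 and 397 CPM, and 596 and 618 CPM against 280.4 and 297 CPM with TGF-β1. Its log2 fold changes were −1.01 ± 0.08 and −1.07 ± 0.08. IFIT5 showed the smallest differences of the 4, with 107 and 110.4 CPM against 77.0 and 85.5 CPM without TGF-β1, and 104 and 111 CPM against 71.8 and 71.0 CPM with it. Its log2 fold changes were −0.42 ± 0.08 and −0.58 ± 0.08, and the call without TGF-β1 was lost without replicate 2 of shMock control (adjusted p = 0.0577). IFIT3, which stabilises IFIT1, had log2 fold changes of −1.12 ± 0.09 and −0.97 ± 0.09.

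All 4 oligoadenylate synthetase genes were lower in both comparisons. OAS1, OAS2 and OAS3 make the 2-5A second messenger that switches on RNase L, while OASL has lost this activity. OASL stood at 11.5 and 14.2 CPM against 2.87 and 5.27 CPM without TGF-β1, and at 6.93 and 9.30 CPM against 2.09 and 4.07 CPM with it. The groups did not overlap, and OASL had the lowest fold change of all members with TGF-β1, with a wide error (−1.39 ± 0.32, adjusted p = 0.0108). That call was lost without replicate 2 of shMock with TGF-β1 or replicate 1 of shMTHFD2 with TGF-β1.

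OAS2 showed the smallest difference of the family with TGF-β1, at 125 and 143 CPM against 62.6 and 75.4 CPM (−0.96 ± 0.10). Without TGF-β1 it stood at 173 and 163 CPM against 88.7 and 95.5 CPM (−0.87 ± 0.10). OAS3, with 1 match in the promoter stretch shown, had −1.17 ± 0.11 without and −1.03 ± 0.11 with TGF-β1, and OAS1 had −1.25 ± 0.13 and −1.08 ± 0.13. Exons of OAS1 overlap AC004551.1 on the other strand.

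MX1 and MX2, dynamin-like GTPases that trap viral nucleocapsids, were both lower in each comparison. MX1 was at 414 and 383 CPM against 199 and 191 CPM without TGF-β1, and at 311 and 375 CPM against 191 and 204 CPM with it. For MX2 the levels were 75.4 and 66.4 CPM against 33.2 and 29.9 CPM, and 58.5 and 75.9 CPM against 29.7 and 42.1 CPM. The shMTHFD2 libraries were the lower ones throughout, and with TGF-β1 the log2 fold changes were −0.79 ± 0.09 for MX1 and −0.90 ± 0.15 for MX2. MX1 shares exon sequence with AP001610.1 on the other strand.

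The genes of ISG15 conjugation were lower for 5 of 5 in both comparisons. ISG15 is a ubiquitin-like protein, UBE2L6 its conjugating enzyme, HERC5 its main human ligase, HERC6 a relative of HERC5, and USP18 removes ISG15 and also dampens interferon receptor signalling. ISG15 showed a large difference without TGF-β1, from 377 and 364 CPM to 180.3 and 125 CPM (−1.28 ± 0.13, adjusted p = 2.5e-05). With TGF-β1 it was smaller, from 195 and 233 CPM to 161 and 146 CPM (−0.48 ± 0.13, adjusted p = 0.0272). The groups with TGF-β1 did not overlap, but the call was lost with library totals alone as scaling, with DESeq2, and without replicate 2 of either group with TGF-β1 (adjusted p from 0.0671 to 0.166). AL645608.3 overlaps its exons on the other strand.

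HERC6 had the largest difference of the 5 with TGF-β1, at 104 and 115 CPM against 54.2 and 59.8 CPM (−0.94 ± 0.09). Its libraries without TGF-β1 were at 134 and 118 CPM against 72.9 and 76.3 CPM (−0.76 ± 0.09). HERC5, whose promoter stretch carries 3 matches, had −0.98 ± 0.14 without and −0.77 ± 0.14 with TGF-β1, and UBE2L6 had −0.65 ± 0.08 and −0.52 ± 0.08. USP18 had −1.37 ± 0.11 and −0.68 ± 0.10.

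Among the membrane restriction factors, IFITM1, IFITM2 and IFITM3 block the fusion of virus and cell, and BST2 (tetherin) holds budding particles at the surface. Without TGF-β1 4 of 4 were lower, and with it 3 of 4. BST2 stood at 25.0 and 23.6 CPM against 12.7 and 11.8 CPM without TGF-β1, and at 14.4 and 22.3 CPM against 8.88 and 10 CPM with it (−0.95 ± 0.18, adjusted p = 0.00313). IFITM2 was the 1 not called with TGF-β1: 105 and 96.7 CPM in shMock against 78.8 and 88.8 CPM, a log2 fold change of −0.27 ± 0.09 (adjusted p = 0.0608). Its groups did not overlap there, nor without TGF-β1, where 141 and 139 CPM stood against 93.8 and 104 CPM (−0.50 ± 0.09, adjusted p = 0.00151).

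IFITM3 had −0.53 ± 0.07 without and −0.31 ± 0.08 with TGF-β1. The second of these calls was lost with library totals alone, without replicate 1 of shMock, or without either replicate of shMTHFD2, among the libraries with TGF-β1. IFITM1 had −0.98 ± 0.09 and −0.62 ± 0.09. The 3 IFITM genes are near-identical in part, IFITM1 and IFITM2 share annotated exon sequence on the same strand, and AC136475.5 overlaps IFITM3 on the other strand, so how the counts were split between them is uncertain.

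RSAD2 (viperin), which makes a chain-terminating nucleotide, and its neighbour CMPK2, a mitochondrial nucleotide kinase, were both lower in each comparison. CMPK2 was at 32.3 and 32.5 CPM against 11 and 11.7 CPM without TGF-β1, and at 22.1 and 32.8 CPM against 11.4 and 11.2 CPM with it. The shMTHFD2 libraries were close to each other in both settings, and the log2 fold changes were −1.52 ± 0.16 and −1.28 ± 0.16. For RSAD2 the levels were 22 and 17.7 CPM against 7.27 and 8.84 CPM, and 16.7 and 25.1 CPM against 9.96 and 13.7 CPM (−1.30 ± 0.21 and −0.82 ± 0.20). The RSAD2 call with TGF-β1 was lost without replicate 2 of shMock with TGF-β1 or replicate 1 of shMTHFD2 with TGF-β1. The exons of these 2 genes overlap on opposite strands.

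Of the 3 RNA-directed members, 1 was called lower without TGF-β1 and 2 with it. EIF2AK2 encodes PKR, the kinase that stops translation on double-stranded RNA. Its levels were 231 and 214 CPM against 171 and 193 CPM without TGF-β1, and 259 and 263 CPM against 166 and 189 CPM with it. The groups were apart in both settings (−0.29 ± 0.09, adjusted p = 0.0464, and −0.56 ± 0.09, adjusted p = 0.00088). The first of these calls was lost with median-of-ratios factors, with library totals alone, and without any 1 of the 4 control libraries or replicate 1 of shMTHFD2 with TGF-β1. AC007899.1 and GPATCH11 overlap EIF2AK2 on the other strand.

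DDX60, a helicase that aids RNA sensing, had −0.26 ± 0.08 (adjusted p = 0.0629) without and −0.56 ± 0.09 (adjusted p = 0.00057) with TGF-β1. ISG20, a 3′ exonuclease, was scarce: 5.66 and 3.90 CPM in shMock against 2.41 and 3.46 CPM in shMTHFD2 without TGF-β1, and 1.65 and 2.47 CPM against 1.79 and 0.813 CPM with it. With TGF-β1 its groups overlapped, and its log2 fold changes of −0.71 ± 0.38 and −0.66 ± 0.43 had errors too wide for a call (adjusted p = 0.277 and 0.358).

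SAMD9 and SAMD9L are neighbouring genes whose proteins stop translation in cells infected by poxviruses. Both were lower in both comparisons. SAMD9 stood at 251 and 226 CPM against 119.5 and 134 CPM without TGF-β1, and at 382 and 358 CPM against 148 and 179 CPM with it (−0.91 ± 0.10 and −1.18 ± 0.10, adjusted p = 3.9e-05 and 6.6e-06). For SAMD9L the levels were 364 and 348 CPM against 229 and 248 CPM, and 352 and 431 CPM against 208 and 234 CPM (−0.58 ± 0.10 and −0.83 ± 0.10). No library of shMTHFD2 reached the level of a shMock library for either gene.

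Of the genes of ADP-ribosylation, PARP9 works with the ubiquitin ligase DTX3L, and PARP14 is a mono-ADP-ribosyltransferase. All 3 were lower in both comparisons. PARP14 was at 319 and 289 CPM against 173 and 202 CPM without TGF-β1, and at 323 and 354 CPM against 164 and 195 CPM with it (−0.70 ± 0.10 and −0.91 ± 0.10). DTX3L had tight replicates, 253 and 246 CPM against 164 and 166 CPM, and 245 and 241 CPM against 168 and 163 CPM (−0.60 ± 0.07 and −0.55 ± 0.07). PARP9 had −0.54 ± 0.08 and −0.77 ± 0.08. Since PARP9 and DTX3L overlap head to head on opposite strands, reads from 1 may count for the other if strand was not used.

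The nuclear proteins SP110 and TRIM22, the second a ubiquitin ligase that restricts viral transcription, were lower in both comparisons. SP110 was at 113 and 112 CPM against 65.9 and 75.8 CPM without TGF-β1, and at 93.2 and 98.9 CPM against 55.6 and 58.4 CPM with it (−0.67 ± 0.09 and −0.75 ± 0.09). TRIM22 was at 297 and 296 CPM against 199 and 226 CPM, and at 193 and 261 CPM against 169 and 169 CPM (−0.48 ± 0.11 and −0.43 ± 0.11). The TRIM22 calls were less firm than those of SP110: without TGF-β1 the call was lost without replicate 2 of shMock control or replicate 1 of shMTHFD2 control. With TGF-β1 it was lost with library totals alone, and without replicate 2 of shMock or either replicate of shMTHFD2. Exons of SP110 overlap SP140 and AC009950.1 on the other strand, and those of TRIM22 overlap OR56B1 on the same strand.

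IFI6, IFI27 and XAF1 are linked to cell death, the last as an antagonist of XIAP. Without TGF-β1 all 3 were lower. XAF1 stood at 122 and 115 CPM against 65.7 and 70.1 CPM, and with TGF-β1 at 104 and 133 CPM against 59.1 and 66 CPM (−0.81 ± 0.11 and −0.92 ± 0.11). IFI6 differed without TGF-β1, at 581 and 575 CPM against 365 and 272 CPM (−0.86 ± 0.11, adjusted p = 0.00015). With TGF-β1 its level was 367 and 401 CPM in shMock and 328 and 315 CPM in shMTHFD2, a difference that kept the groups apart but did not pass the test (−0.26 ± 0.11, adjusted p = 0.147). IFI27 had −0.69 ± 0.11 and −0.42 ± 0.11. The second IFI27 call was lost with library totals alone and without replicate 2 of either group with TGF-β1. PRAL overlaps XAF1 on the other strand.

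The remaining 7 members have mixed roles. RTP4, a chaperone that binds viral RNA, had the largest difference of them with TGF-β1: 16.6 and 15.5 CPM against 7.13 and 7.29 CPM without it, and 12.2 and 15.1 CPM against 6.48 and 5.24 CPM with it (−1.16 ± 0.17 and −1.22 ± 0.18). LGALS3BP, a secreted galectin-binding glycoprotein, was the only member with a fold change above 0 in either comparison. It stood at 366 and 375 CPM in shMock with TGF-β1 and at 366 and 390.1 CPM in shMTHFD2 with TGF-β1, so the groups overlapped (0.03 ± 0.08, adjusted p = 0.866). Without TGF-β1 it was at 458 and 429.8 CPM against 402 and 356 CPM (−0.23 ± 0.08, adjusted p = 0.0974). Its promoter stretch with 1 match is printed above.

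EPSTI1 and PLSCR1, a lipid scramblase that blocks viral entry, were lower in both comparisons, EPSTI1 by −1.22 ± 0.11 and −0.97 ± 0.11 and PLSCR1 by −0.58 ± 0.08 and −0.40 ± 0.08 on the log2 scale. IFI44 had −0.54 ± 0.11 and −0.58 ± 0.11, and its relative IFI44L −0.61 ± 0.13 and −0.90 ± 0.13. IFI35, which acts in innate signalling, had −1.08 ± 0.11 without and −0.45 ± 0.11 with TGF-β1. All of these were called. With TGF-β1, the IFI35 call was lost with library totals alone and without replicate 2 of shMock or of shMTHFD2, and the PLSCR1 call without replicate 2 of shMTHFD2. Without TGF-β1, IFI44 lost its call without replicate 2 of shMock control or replicate 1 of shMTHFD2 control, and IFI44L without replicate 1 of either control group.

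**Figure D3:**
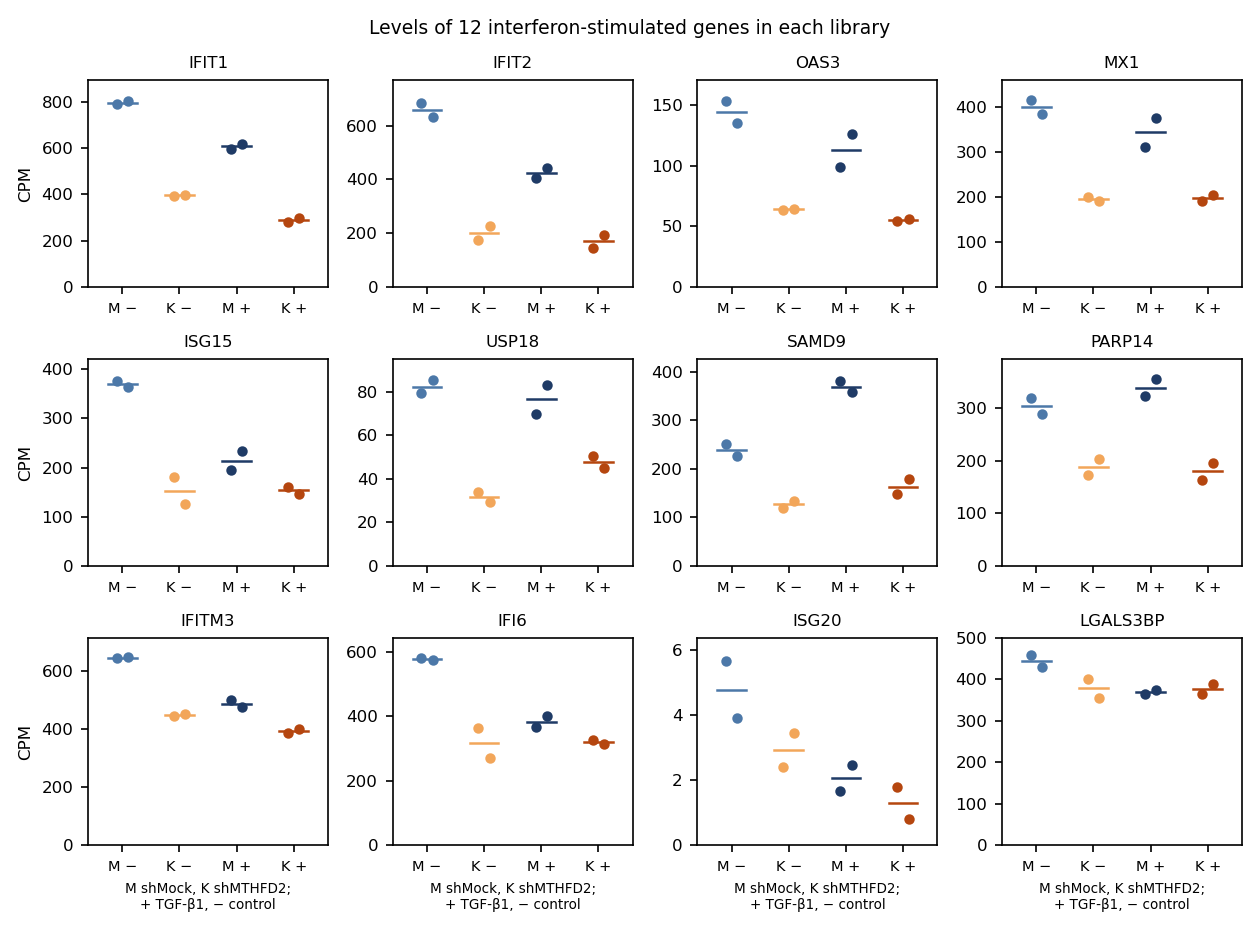
CPM of 12 members in each library (points) with the group mean (bar), for shMock (M) and shMTHFD2 (K) without (−) and with (+) TGF-β1. In the IFIT1 panel the 4 shMTHFD2 points lie between 280.4 and 397 CPM and the 4 shMock points between 596 and 801 CPM; in the LGALS3BP panel the points with TGF-β1 overlap.

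Among the 34 members with a promoter window, the fold changes with TGF-β1 were also listed by presence of the response element. The 7 members without a window, OASL and IFIT2 among them, are left out, and a role of the element was not tested. The median log2 fold change with TGF-β1 was −0.72 for the 26 members with it and −0.88 for the 8 without, among them CMPK2 at −1.28.

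TGF-β1 itself was compared with control within each line. In shMock, TGF-β1 lowered 18 members and raised 1, against 18.1% of all tested genes called lower, 17.3% higher and 35.4% in either direction. The median of the members was −0.24, against −0.02 over all genes. ACTA2, the smooth-muscle actin of activated fibroblasts, marked the treatment in both lines, rising from 101 and 104 CPM to 1314 and 1277 CPM in shMock and from 93.9 and 88.0 CPM to 861 and 843 CPM in shMTHFD2. These comparisons share their libraries with the knockdown comparisons above.

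The lowest fold changes in shMock were those of ISG20 (−1.22 ± 0.40, adjusted p = 0.0266), ISG15 (−0.79 ± 0.13, adjusted p = 0.00024), IFI35 (−0.68 ± 0.11, adjusted p = 0.00014) and HERC5 (−0.68 ± 0.13, adjusted p = 0.00105). For ISG15 this was a fall from 377 and 364 CPM to 195 and 233 CPM. By role, TGF-β1 lowered 3 of 4 IFIT genes, 2 of 4 oligoadenylate synthetases, 3 of 5 genes of ISG15 conjugation and 3 of 4 membrane factors. It also lowered both nuclear genes, SP110 (adjusted p = 0.0445) and TRIM22 (adjusted p = 0.0151), and 2 of 3 genes linked to cell death. Of the RNA-directed genes 1 of 3 was lower, and of those with mixed roles 2 of 7. Both MX genes, RSAD2, CMPK2 and the 3 genes of ADP-ribosylation were not called. SAMD9 was the member that rose, from 251 and 226 CPM to 382 and 358 CPM (0.63 ± 0.10, adjusted p = 0.00013).

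The count of members called for TGF-β1 in shMock changed when 1 library was left out. The shares of all genes called in the other fits of this paragraph are not given here, and whether they moved alike was not tested. Without replicate 2 of shMock with TGF-β1, which stood high for these genes, 22 members were lower and 1 higher. Without replicate 1 of that group 11 were lower and 2 higher. The count also dropped to 12 lower without replicate 1 of shMock control and to 13 without its replicate 2, each with 1 higher. ISG20, OAS2 and OAS3 lost their calls without replicate 1 of either shMock group. Across the members, the change in shMock went with the GC content of the exons (Pearson r of −0.63, and −0.19 across all tested genes, a description over genes that share libraries). With offsets for GC and length in the fit, 16 members were lower and 1 was higher. IFITM2, IFITM3, UBE2L6 and LGALS3BP lost their calls with these offsets.

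In shMTHFD2, TGF-β1 lowered 9 members and raised 2, against 11.0% of all genes lower, 12.8% higher and 23.8% in either direction. The median was −0.18, against −0.01 over all genes. The members called lower were IFIT1, OAS2, HERC5, HERC6, IFITM1, DDX60, PARP9, SP110 and TRIM22, and of these IFIT1 kept its call under every alternative and with each library left out. The 2 that rose were USP18 and SAMD9. USP18 went from 33.8 and 29.5 CPM to 50.6 and 45.1 CPM (0.60 ± 0.11, adjusted p = 0.00071), whereas in shMock it stood at 79.2 and 85.2 CPM without and 70.0 and 83.0 CPM with TGF-β1 (−0.10 ± 0.10, adjusted p = 0.462). SAMD9 went from 119.5 and 134 CPM to 148 and 179 CPM (0.36 ± 0.10, adjusted p = 0.0147), a call lost with library totals alone and without replicate 1 of shMTHFD2 control or replicate 2 of shMTHFD2 with TGF-β1. The count of calls was 7 without replicate 2 of shMTHFD2 control, 6 without replicate 1 and 7 without replicate 2 of shMTHFD2 with TGF-β1. With library totals alone as scaling, which put the median of all genes at −0.12, 16 members were lower and 1 was higher. For these other fits, too, the shares of all genes called are not given here.

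TGF-β1 lowered 6 of the 41 members in both lines, and 8.66% of all tested genes. The highest group mean was that of shMock control for 33 members and of shMock with TGF-β1 for 8. The lowest was that of shMTHFD2 with TGF-β1 for 30, of shMTHFD2 control for 10 and of shMock with TGF-β1 for 1.

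**Figure D4:**
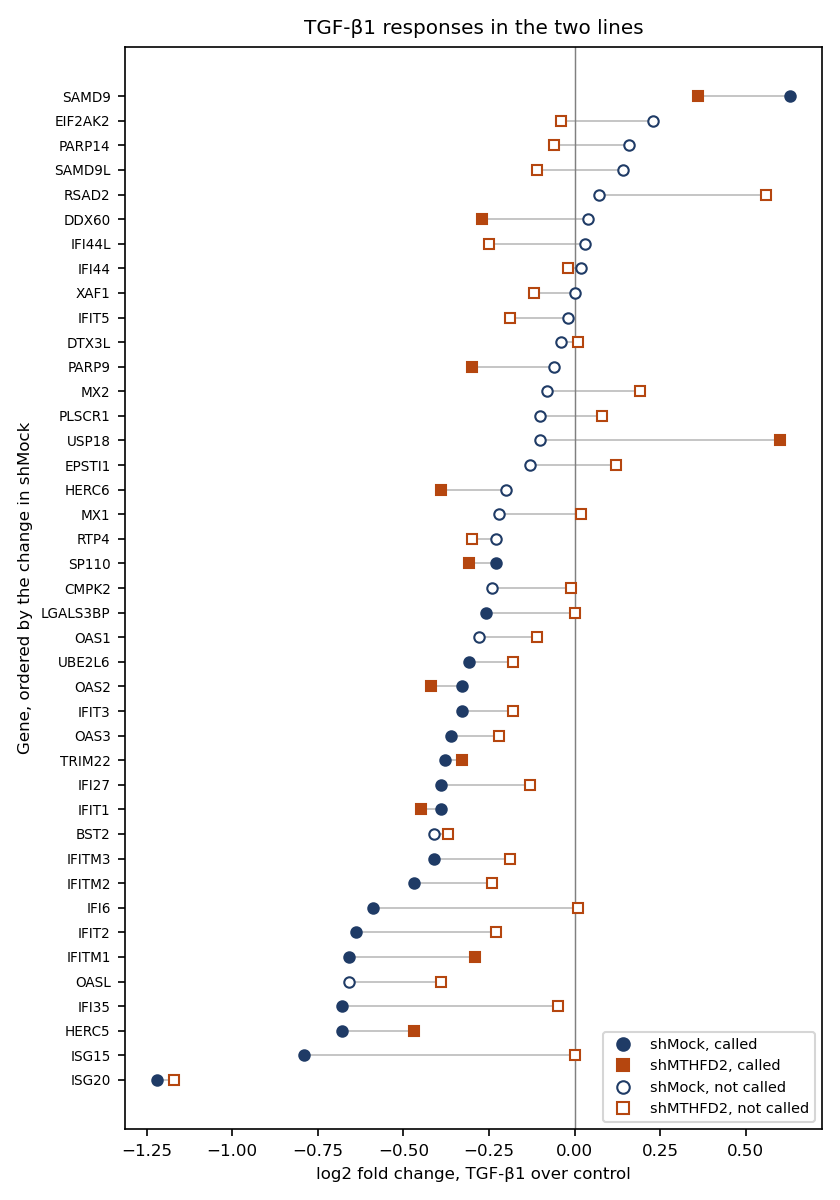
Log2 fold change of TGF-β1 over control (x axis) for each of the 41 genes (rows), in shMock (circles) and shMTHFD2 (squares); filled symbols passed an adjusted p of 0.05. Changes in shMock ran from −1.22 for ISG20 to 0.63 for SAMD9; the symbols of ISG15, IFI35, IFI6 and USP18 lie far apart between the lines.

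The interaction tests whether the TGF-β1 response differed between the lines, which is the same as whether the knockdown difference changed with TGF-β1. None of the 41 members was called by edgeR, where 0.0889% of all tested genes were. An unadjusted p under 0.05 was found for 8 members, a looser threshold for which no share of all genes is given here. The values ran from −0.31 ± 0.12 for DDX60 to 0.80 ± 0.19 for ISG15, with a median of 0.14, against 0.02 over all genes. The highest after ISG15 were USP18 (0.70 ± 0.15, adjusted p = 0.101), IFI35 (0.63 ± 0.15, adjusted p = 0.148) and IFI6 (0.60 ± 0.16, adjusted p = 0.159). The 0.0889% holds for the edgeR fit above only, and no share of all genes is given here for other settings. DESeq2 called 3 members higher (IFI6, IFI35 and USP18), and edgeR without a filter on low counts called these and ISG15. The same 4 were called without replicate 1 of shMTHFD2 control, the library in which ISG15, IFI6, IFI35 and USP18 stood above replicate 2.

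The rest of the interferon pathway was followed in 44 further genes, of which 31 passed the filter on low counts. With TGF-β1, 9 of the 31 were lower in shMTHFD2 and 1 was higher, and without it 8 were lower and none was higher. The shares of all tested genes were 8.23% lower and 4.83% higher with TGF-β1, and 8.19% and 3.25% without it. The medians were −0.12 and −0.23. With library totals alone the first split was 7 lower and 3 higher, and no share of all genes is given here for that fit.

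Among ligands, IFNB1, the interferon that fibroblasts themselves make, was below the filter on low counts. Without TGF-β1 it stood at 1.48 and 1.53 CPM in shMock (64 counts in the 2 libraries) and at 0.278 and 0.775 CPM in shMTHFD2 (21 counts). With TGF-β1 it stood at 0.373 and 1.26 CPM in shMock (29 counts) and at 0.306 and 0.102 CPM in shMTHFD2 (8 counts). The shMTHFD2 libraries were below the shMock libraries of their treatment, but edgeR without the filter called neither difference (log2 fold change −1.51, adjusted p = 0.197, without TGF-β1, and −1.96, adjusted p = 0.101, with it). IFNA1, IFNK, IFNL3 and IFNG had no counts in any library.

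The receptor genes for type I interferon were not called: IFNAR1 had 0.06 ± 0.09 without and −0.18 ± 0.09 with TGF-β1, and IFNAR2 had −0.05 ± 0.14 and −0.21 ± 0.14. Of the factors that act below the receptors, STAT2 had −0.19 ± 0.11 and −0.21 ± 0.11, and IRF9 had 0.00 ± 0.09 and −0.08 ± 0.09, with no call.

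Genes called in both comparisons included IRF1, RIGI, IFIH1, STING1 and CXCL10. RIGI and IFIH1, the cytosolic sensors of viral RNA, had −0.81 ± 0.08 and −1.03 ± 0.08 without TGF-β1, and −0.86 ± 0.08 and −0.92 ± 0.08 with it. STING1, the adaptor of DNA sensing, had −0.67 ± 0.08 and −0.50 ± 0.09, and the transcription factor IRF1 had −0.79 ± 0.11 and −0.47 ± 0.11. CXCL10, a chemokine that draws T cells, was at 12.9 and 13.5 CPM against 3.20 and 3.20 CPM without TGF-β1, and at 10.3 and 12.9 CPM against 2.91 and 3.35 CPM with it (−2.04 ± 0.20 and −1.88 ± 0.21). IRF7 and TLR3 were called without TGF-β1 only (−0.84 ± 0.14 and −2.03 ± 0.46), and CXCL11, IFI16 and IFNGR1 with it only (−2.02 ± 0.48, −0.30 ± 0.09 and −0.38 ± 0.11). Whether these differed between the settings was covered by the interaction test, which called none of the 31. TLR3 and CXCL11 were scarce. TLR3 had 161 counts in shMock control against 38 in shMTHFD2 control. CXCL11 had 86 counts in shMock with TGF-β1 against 23 in shMTHFD2 with TGF-β1. The gene higher with TGF-β1 was IRF3 (0.31 ± 0.09, adjusted p = 0.0399).

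Some of these calls rested on single libraries. With TGF-β1, CXCL11 lost its call without replicate 2 of shMTHFD2, and IRF1 without replicate 2 of shMock or of shMTHFD2. IFNGR1 lost it without replicate 1 of shMock or either replicate of shMTHFD2, and IFI16 without either replicate of shMock, replicate 1 of shMTHFD2 or replicate 1 of shMock control. Both also lost it with library totals alone and with GC and length offsets. The IRF3 call was lost with these offsets, with the 2 groups fitted alone, without any 1 of the 4 control libraries, and without replicate 1 of either group with TGF-β1. Without TGF-β1, TLR3 lost its call without replicate 2 of shMock or either replicate of shMTHFD2. RIGI, IFIH1, STING1 and CXCL10 kept their calls in both comparisons under each alternative.

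**Figure D5:**
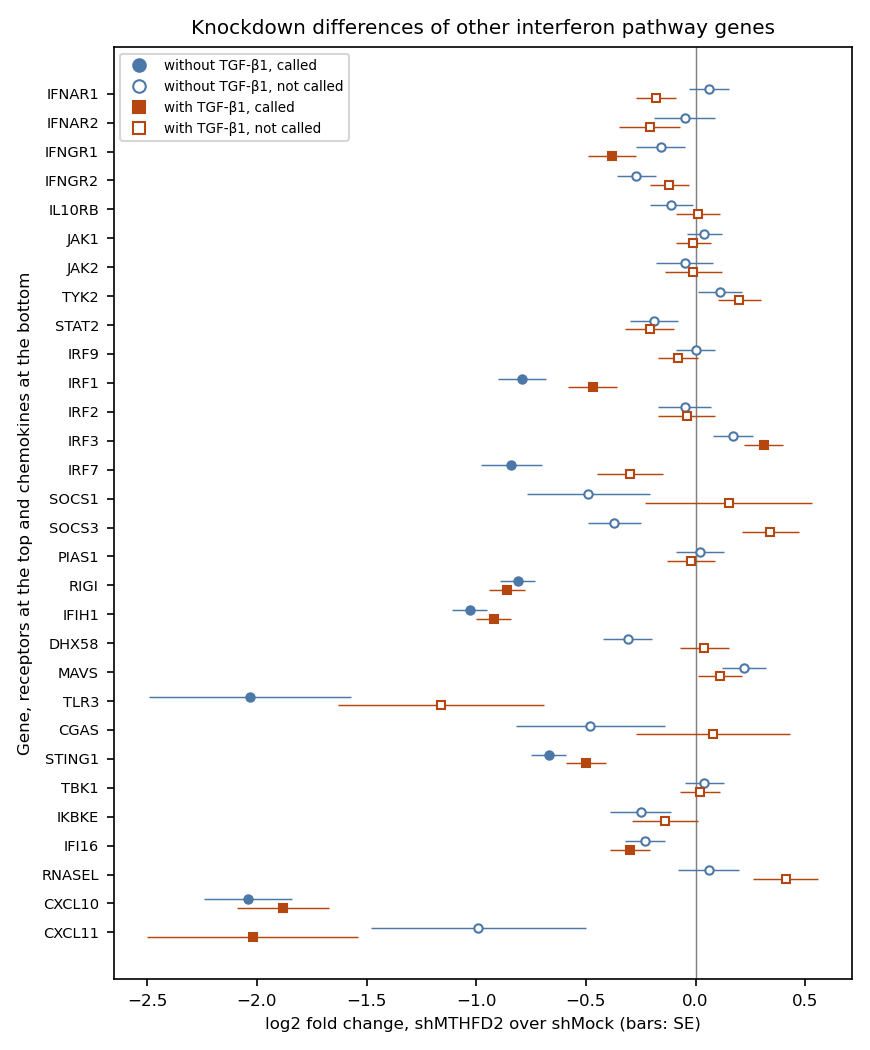
Log2 fold change of shMTHFD2 over shMock (x axis, SE bars) for 30 of the 31 further pathway genes that were tested, without TGF-β1 (circles) and with it (squares); filled symbols passed an adjusted p of 0.05. STAT2, IRF9, IFNAR1 and IFNAR2 lie near 0, and CXCL10 lies near −2.

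TGF-β1 lowered 11 of these 31 genes and raised 1 in shMock, and lowered 10 and raised 2 in shMTHFD2. Of all tested genes, it lowered 18.1% and raised 17.3% in shMock, and lowered 11.0% and raised 12.8% in shMTHFD2. SOCS1, a feedback inhibitor of JAK kinases, had the largest change, from 16.0 and 15.3 CPM to 2.72 and 1.38 CPM in shMock (−2.92 ± 0.33) and from 13.7 and 8.47 CPM to 3.01 and 1.58 CPM in shMTHFD2 (−2.27 ± 0.32). RIGI and IFIH1, which were lower with knockdown, had changes of 0.08 ± 0.08 and 0.03 ± 0.08 with TGF-β1 in shMock and were not called.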

How the data were processed

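The deposited table holds whole-number counts for 60666 gene IDs, 1 column per library, although its name speaks of FPKM. The column totals differ and low values run without gaps, so the values were used as raw counts. How the authors counted, with which annotation and with what use of strand, is not stated in any source used here. STAR 2.7.1a, DESeq2 1.32.0 and GRCh38 appear in the submitters' processing notes, with no role for each. Symbols came from the supplied name table for 60437 IDs, and positions, exon overlaps, length and GC from GENCODE release 29, which holds 58420.

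The 41 members and the lists of other genes were chosen with earlier results of these data known. Values per library are given, in each role group, for the members with the lowest and the highest fold change of shMTHFD2 with TGF-β1, and for members not called lower there. Some genes of the other lists are not reported here by name. Further members with such values (IFIT1, USP18) were picked after their values were seen.

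Genes averaging 1 CPM or more were tested with edgeR 4.0.16 (quasi-likelihood test, trimmed-mean factors, R 4.3.3), all 8 libraries in 1 fit with 4 residual degrees of freedom. The common biological coefficient of variation was 8.79%. Adjusted p-values are Benjamini-Hochberg over 13493 genes, and every adjusted p given is edgeR's unless another tool is named. Approximate standard errors divide each fold change by the root of its F statistic. CPM use the scaled library sizes. With 18162738 to 22221927 counts per library, 3 counts are worth 0.135 to 0.172 CPM. Replicates differed by more than counting error (chi-square over degrees of freedom 6.47 to 11.2), and counts per library limit precision for scarce genes only. The scripts were tested on simulated counts. Up to 17 alternatives were run per comparison: other scaling factors, DESeq2 1.42.0, other filters, 2 groups alone, a replicate block, GC and length offsets, and each library left out.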

Additional observations from a re-analysis of the deposited data

How the results depend on the processing

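Under the alternatives that kept all 8 libraries, 32 to 39 of 41 were lower with TGF-β1 and 37 to 39 without it, and 31 to 39 and 34 to 38 when 1 library was left out. The counts for TGF-β1 in shMTHFD2 were less firm, with 17 members called (16 lower, 1 higher) with library totals alone and 6 to 12 with 1 library left out. In shMock, 13 to 23 members were called with 1 library left out. Interaction calls depended on the method, with 3 members called by DESeq2, 4 without a filter on low counts, and 0 to 4 with 1 library left out. For the further pathway genes, the interaction gave 1 call by DESeq2 and 2 without a filter, and TGF-β1 in shMTHFD2 gave 6 to 13 calls with 1 library left out. The cause of these shifts was not tested, and the shares of all genes called under these settings are not given here. LGALS3BP with TGF-β1 turned from 0.03 to −0.11 with GC and length offsets, with or without the replicate block, and ran from −0.02 to 0.06 with 1 library of its groups left out, all uncalled. The fit of 2 groups alone could not be made for the interaction.

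The replicate numbers name the libraries and did not pair them: deviations from group means of same-numbered libraries correlated at −0.02 to 0.069. With the replicate block, 37 and 38 members were lower with knockdown (with and without TGF-β1), 21 and 11 were called for TGF-β1 in shMock and shMTHFD2, and 0 for the interaction. For the pathway genes the block gave 10, 8, 12, 11 and 0 calls in the same order.

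Scarce genes, such as ISG20 and OASL (means of 2.77 and 7.02 CPM over all libraries), have wide errors. TLR3 and CXCL11, at means of 1.96 and 1.24 CPM, lie nearer the filter of 1 CPM. IFNB1, below it, rests on 8 to 64 counts per group. Each arm has 1 hairpin and each group 2 libraries.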
